A study of Mus musculus with 5 samples.

Results

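The genes described here are 32 genes of the unfolded protein response and of protein folding in the endoplasmic reticulum (ER), out of 12393 genes that the arrays name by a probe set with 1 gene symbol. They were chosen by name, as every probe set whose platform annotation carries one of the 32 symbols, and 69 probe sets did so. The list of symbols was drawn up with earlier results of these data known. Shares set beside those of all genes tested are therefore description only. All 32 genes passed the level filter, a log2 value above 4 on at least 2 of the 5 arrays, and were tested. By role they comprise 4 sensors and transcription factors, 15 folding genes, 7 genes of ER-associated degradation and translocation, and 6 genes of the Atf4 arm.

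The measurements come from endothelial cells of the thymus, which were collected by flow sorting for VE-cadherin, without CD45 or EpCAM, after magnetic depletion of blood cells that carry CD45. One group had 2 arrays of cells from mice irradiated over the whole body with a sublethal 550 cGy from a cesium source, without hematopoietic rescue, and sampled at day 4. The other had 3 arrays of cells from untreated mice (day 0). All mice were female C57BL/6J aged 6 to 8 weeks, and each array held RNA from cells pooled over several mice, so the arrays do not show how single animals vary. The cell type label reads CD45-negative thymic stromal cells for the irradiated arrays and thymic endothelial cells for the untreated ones, although one sorting protocol is given for both.

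Proteins that are secreted or sit in membranes fold in the ER, where chaperones such as BiP bind unfolded chains and disulfide isomerases form their cross-links. When unfolded chains accumulate, the membrane sensors ATF6, IRE1 (gene Ern1) and PERK (gene Eif2ak3) raise the output of chaperones, direct misfolded proteins to degradation in the cytosol and slow translation. PERK and other kinases of the same target, which respond to amino acid shortage among other stresses, favour translation of ATF4, a factor that activates genes of amino acid supply and of recovery from stress. Endothelial cells secrete matrix, clotting factors and adhesion proteins and use this machinery at rest.

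None of the 32 genes passed the limma threshold of a Benjamini-Hochberg adjusted p under 0.05, the same rule by which 2.85% of all 8940 genes tested were called. Differences were small, between -0.27 and 0.58 on the log2 scale (day 4 minus untreated), and the lowest adjusted p among them was 0.0818, for Ppp1r15a. Signs were uneven. The log2 change was above 0 for 28 of the 32 genes, against 45.7% of all genes tested, and the median change was 0.21, against -0.023 over all genes tested. Hyou1, Derl1, Sec61b and Ern1 were the 4 genes below 0.

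Both irradiated arrays lay above every untreated array for 15 of the 32 genes (46.9%), which held for 18% of all genes tested. Both lay below every untreated array for 2 genes (6.25%), against 23% of all genes. At an unadjusted limma p under 0.05, 7 genes (21.9%) were higher, against 10.1% of all genes, and 2 (6.25%) were lower, against 11.1%. The 7 were Ppp1r15a, Atf4, Ddit3, Edem1, Hspa5, Syvn1 and Pdia6. Of these, Atf4, Edem1 and Hspa5 had a second probe set past the filter, which overlapped between the groups. The 2 lower genes were Sec61b and, on its brightest probe set, Derl1, whose other probe sets gave both signs. For 30 of the 32 genes the 95% confidence interval of the change lay within a 2-fold change either way. Dnajb9 and Pdia3 were the exceptions, with upper bounds of 1.17 and 1.15 on the log2 scale. In pooled cells a lower or higher value cannot be told apart from a change in the share of cells that express the gene.

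**Figure D1:**
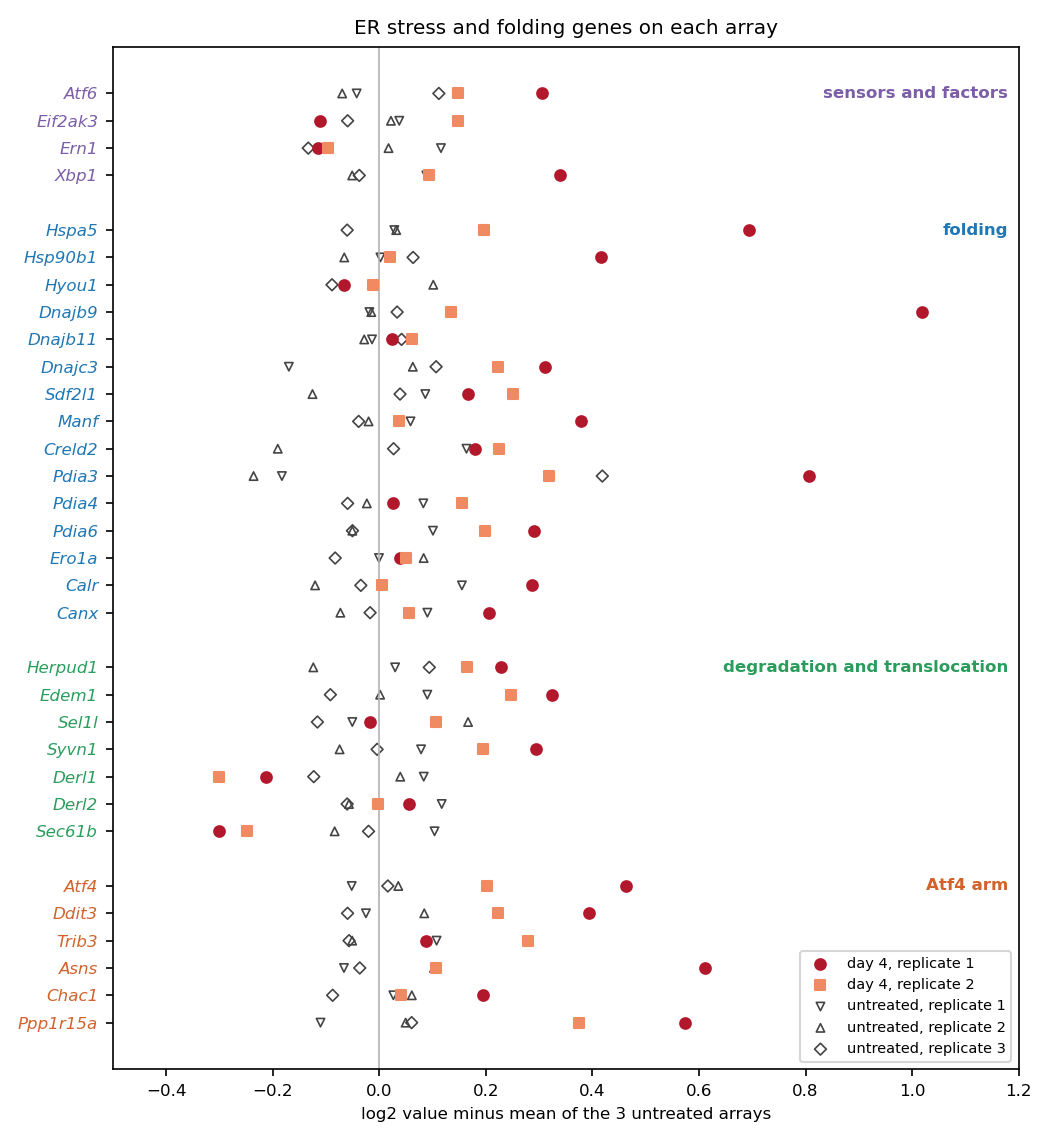
Log2 value of each of the 32 genes on each array, minus the mean of the 3 untreated arrays, with genes down the page by role. Filled symbols are the 2 irradiated arrays and open symbols the 3 untreated ones. Both filled symbols lie right of all open ones for 15 genes and left of them for 2, and the filled circle of Dnajb9 is the farthest to the right at 1.02.

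Folding genes were the largest group, and their promoters are the best known sites of ER stress factors. RefSeq promoter windows of build GRCm38.p6, from 250 bases before the transcription start to 50 bases after it, were matched for 28 of the 32 genes. The ER stress response element (ERSE) is CCAAT and CCACG spaced by 9 bases of any kind. It is bound by ATF6 together with the CCAAT-binding factor NF-Y, and its letters were found on either strand in 7 of 13 folding genes and in 1 of 6 degradation genes, Syvn1. Among all 7207 tested genes with a window, 0.208% held it. The 9 matches are shown because they mark the folding genes whose promoters share this arrangement, each read in the motif's own direction with 10 bases on either side. Capitals mark the CCAAT and CCACG letters.

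Hspa5, chr2:34772015-34772053, + strand: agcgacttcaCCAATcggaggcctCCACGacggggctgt
Hsp90b1, distal, chr10:86705628-86705666, - strand: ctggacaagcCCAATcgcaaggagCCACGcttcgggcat
Hsp90b1, proximal, chr10:86705523-86705561, + strand: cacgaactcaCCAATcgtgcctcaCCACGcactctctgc
Dnajc3, chr14:118937817-118937855, + strand: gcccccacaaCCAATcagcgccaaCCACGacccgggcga
Pdia6, chr12:17266481-17266519, + strand: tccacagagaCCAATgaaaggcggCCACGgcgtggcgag
Creld2, chr15:88819510-88819548, - strand: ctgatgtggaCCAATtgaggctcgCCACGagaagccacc
Calr, chr8:84847065-84847103, + strand: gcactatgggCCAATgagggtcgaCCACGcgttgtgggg
Canx, chr11:50325790-50325828, - strand: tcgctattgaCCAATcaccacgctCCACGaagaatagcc
Syvn1, chr19:6046522-6046560, + strand: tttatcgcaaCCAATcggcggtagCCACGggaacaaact

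The shorter form ERSE-II, ATTGG and CCACG spaced by 1 base, was found on either strand in Herpud1 and Dnajb11 of the 28 genes, against 0.0971% of the tested genes with a window. The element UPRE, TGACGTGG, bound by XBP1 and ATF6, was found in 0 of the 28 genes and in 1.08% of the tested genes. The Atf4 arm had another motif, the C/EBP-ATF response element (CARE), TGATG and AA spaced by 1 base, which ATF4 binds with C/EBP partners. Its letters were found in 3 of the 6 Atf4 arm genes, and also in Herpud1, against 2.76% of the tested genes with a window. Of 32 other genes linked to ATF4, from the wider list described below, 11 (34.4%) held them too. No 2 of the ERSE, ERSE-II and CARE matches in the 28 genes overlapped each other. The CARE and ERSE-II matches are shown in the same way, with capitals on the fixed letters.

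Asns, CARE, chr6:7693215-7693242, - strand: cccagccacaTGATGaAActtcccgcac
Chac1, CARE, chr2:119351039-119351066, - strand: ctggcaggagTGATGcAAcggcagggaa
Trib3, CARE, chr2:152344029-152344056, + strand: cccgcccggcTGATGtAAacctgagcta
Herpud1, CARE, chr8:94386307-94386334, - strand: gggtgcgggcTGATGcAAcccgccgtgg
Herpud1, ERSE-II, chr8:94386367-94386397, + strand: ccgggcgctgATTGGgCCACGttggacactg
Dnajb11, ERSE-II, chr16:22857842-22857872, + strand: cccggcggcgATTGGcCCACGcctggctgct

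The whole window of Hspa5 is given as the best known ER stress promoter, on chr2:34771840-34772139 of GRCm38.p6, + strand, with the ERSE letters in capitals. Only exact matches were sought, so stretches that differ from the ERSE by a letter are not marked.

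Hspa5 promoter: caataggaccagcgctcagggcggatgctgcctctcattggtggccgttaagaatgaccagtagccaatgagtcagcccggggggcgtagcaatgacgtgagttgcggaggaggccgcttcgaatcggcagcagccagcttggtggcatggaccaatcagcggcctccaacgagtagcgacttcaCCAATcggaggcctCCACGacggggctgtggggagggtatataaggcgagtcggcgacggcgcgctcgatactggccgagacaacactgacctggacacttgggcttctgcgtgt

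All 8 of the 32 genes with an ERSE had a log2 change above 0, from 0.13 for Canx to 0.44 for Hspa5, and none was called. Changes above 0 were found for 28 of all 32 genes. Among the 7 tested genes outside the 32 that held the letters, 2 were above 0, with a median of -0.18. Both irradiated arrays lay above every untreated array for Hspa5, Dnajc3, Syvn1, Pdia6 and Creld2, and the groups overlapped for Hsp90b1, Calr and Canx. The former held for 15 of all 32 genes and for 18% of all genes tested. These genes were not compared by a test with those that lacked the letters.

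Among the chaperones, Hspa5 encodes BiP, the main Hsp70 chaperone of the ER and the partner that keeps the 3 sensors inactive at rest. Its log2 value was 12.39 and 11.89 on the irradiated arrays, against 11.72, 11.73 and 11.63 on the untreated arrays. The groups did not overlap, but irradiated replicate 1 was well above replicate 2. The log2 change was 0.44 ± 0.16 (SE), a 1.36-fold difference, with a limma adjusted p of 0.182. A second Hspa5 probe set overlapped between the groups on a difference of 0.30.

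Dnajb9, a co-chaperone of BiP that also holds back IRE1, had the largest change of the 32 genes. It stood at 10.84 and 9.96 on the irradiated arrays, against 9.80, 9.81 and 9.86 on the untreated arrays. The untreated arrays lay close together, and most of the mean difference of 0.58 ± 0.24 (SE) came from irradiated replicate 1, which lay 1.02 above the untreated mean against 0.14 for replicate 2. The limma adjusted p was 0.241. Without irradiated replicate 2 the changes of Dnajb9 and Hspa5 were 1.02 and 0.69, each from a single irradiated array. Without irradiated replicate 1 they were 0.14 and 0.20.

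Hsp90b1 encodes GRP94, the Hsp90 of the ER, which matures integrins and Toll-like receptors. Its values were 11.01 and 10.62 on the irradiated arrays, against 10.60, 10.53 and 10.66 on the untreated arrays, so that replicate 2 fell among the untreated values. Manf, a secreted ER stress protein, showed the same arrangement, at 9.75 and 9.41 on the irradiated arrays, against 9.43, 9.35 and 9.33 on the untreated arrays. The changes of Hsp90b1 and Manf were 0.22 and 0.21, with limma adjusted p of 0.403 and 0.386.

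Other co-chaperones varied less between the irradiated arrays. Dnajc3, known as p58IPK, a BiP co-chaperone that inhibits PERK, was at 8.85 and 8.76 on the irradiated arrays, against 8.36, 8.60 and 8.64 on the untreated arrays. Sdf2l1, a partner of ER chaperone complexes, was at 6.26 and 6.34 on the irradiated arrays, against 6.18, 5.96 and 6.13 on the untreated arrays. Both genes had all irradiated values above all untreated ones, at changes of 0.27 and 0.21 with limma adjusted p of 0.254 and 0.309. The 3 other Dnajc3 probe sets past the filter overlapped between the groups, at 0.15, 0.11 and 0.023, and the mean of its probe sets gave a change of 0.14. Creld2, an ER stress protein with disulfide isomerase activity, had no overlap between the groups either (0.20, limma adjusted p = 0.399). Dnajb11, a BiP co-chaperone, and Hyou1, a large Hsp70-like chaperone that serves BiP as nucleotide exchange factor, differed by 0.043 and -0.039 and overlapped. Another Hyou1 probe set, at 4.14 and 4.33 on the irradiated arrays against 4.90, 4.50 and 4.49 on the untreated arrays, lay close to the level filter and gave -0.39.

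The disulfide isomerases differed among themselves. Pdia3, known as ERp57, which works with calreticulin and calnexin on glycoproteins, was at 9.69 and 9.20 on the irradiated arrays, against 8.70, 8.64 and 9.30 on the untreated arrays. One untreated array lay above irradiated replicate 2, and the SD of the untreated group was 0.36, the highest of the 32 genes. The change was 0.56 ± 0.24 (SE, limma adjusted p = 0.245). Pdia6, an isomerase that dampens IRE1 signalling, was at 9.49 and 9.40 on the irradiated arrays, against 9.30, 9.15 and 9.15 on the untreated arrays, with no overlap. Its change was 0.24 ± 0.10 (SE, limma adjusted p = 0.231).

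Pdia4, another isomerase, differed by 0.090 and overlapped. Ero1a, the oxidase that recharges disulfide isomerases and is also induced by low oxygen, differed by 0.045 on its brightest probe set. Its 2 other probe sets past the filter gave 0.43 and 0.25, each with irradiated arrays above all untreated ones, so the value for Ero1a depended on the probe set. Calr and Canx encode calreticulin and calnexin, the lectin chaperones that retain glycoproteins until they are folded. Calr was at 11.19 and 10.91 on the irradiated arrays, against 11.06, 10.78 and 10.87 on the untreated arrays. Canx was at 10.33 and 10.19 on the irradiated arrays, against 10.22, 10.06 and 10.11 on the untreated arrays. In both genes irradiated replicate 1 was above every untreated array and replicate 2 was not. Calr and Canx differed by 0.15 and 0.13, with limma adjusted p of 0.566 and 0.504, and by 0.0045 and 0.056 without irradiated replicate 1. A second Canx probe set was at 7.91 and 7.80 on the irradiated arrays, against 7.45, 7.49 and 7.55 on the untreated arrays, a difference of 0.36 with no overlap.

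Over the 15 folding genes, 14 changes were above 0 and the median was 0.21, with 6 genes (40%) whose irradiated arrays both lay above the untreated ones, against 18% of all genes tested. The median of irradiated replicate 1 over the untreated mean was 0.29 and that of replicate 2 was 0.14. Over all genes tested these medians were -0.050 and 0.0033. Of the 32 genes, 8 were more than 0.25 higher on irradiated replicate 1 than on replicate 2, and 1, Eif2ak3, was more than 0.25 higher on replicate 2.

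**Figure D2:**
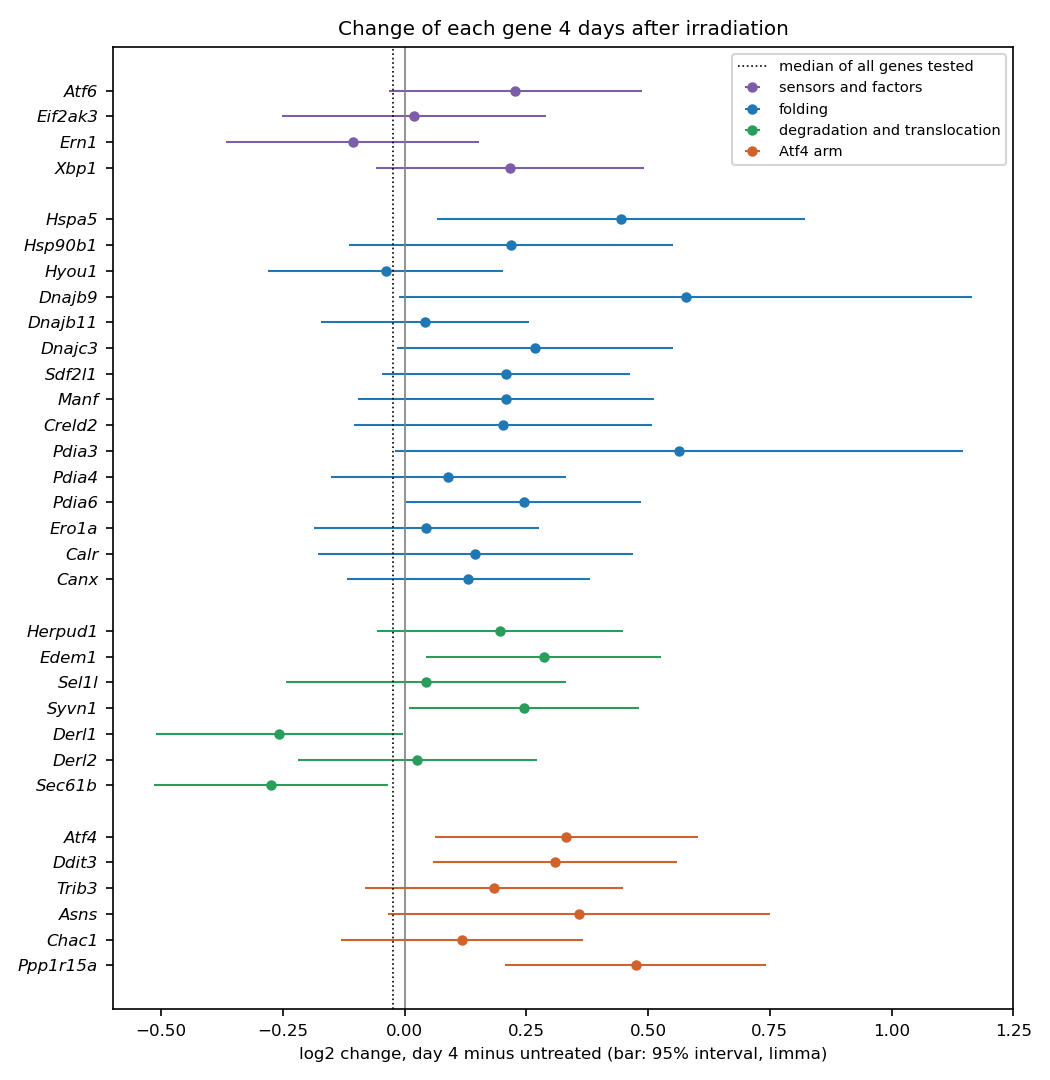
Log2 change of each of the 32 genes, day 4 minus untreated, with its 95% confidence interval from the limma fit, coloured by role. The dotted line is the median of all genes tested, -0.023. The points lie between -0.27 and 0.58, and the intervals of Dnajb9 and Pdia3 are the widest.

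The Atf4 arm had all 6 changes above 0, with a median of 0.32. That median was 0.43 without irradiated replicate 2 and 0.21 without irradiated replicate 1. Atf4 itself, the transcription factor, was at 11.77 and 11.51 on the irradiated arrays, against 11.26, 11.34 and 11.32 on the untreated arrays. The groups did not overlap, and the change was 0.33 ± 0.11 (SE, limma adjusted p = 0.166). Because ATF4 is controlled mainly at translation, the level of its mRNA is only part of its activity. Its other probe set past the filter overlapped between the groups, at a difference of 0.098.

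Ppp1r15a encodes GADD34, which directs a phosphatase to eIF2alpha and so restores translation after stress. Its log2 value was 10.53 and 10.34 on the irradiated arrays, against 9.85, 10.01 and 10.02 on the untreated arrays. The irradiated values lay apart from the untreated ones by more than the range within either group. At 0.47 ± 0.11 (SE), a 1.39-fold difference with a limma adjusted p of 0.0818, it ranked 516 among the 8940 genes by p. With an intensity trend and robust fitting the limma adjusted p was 0.0427, and over all alternatives it lay between 0.0427 and 0.218.

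Ddit3 encodes CHOP, a factor that favours cell death under lasting ER stress. It was at 8.40 and 8.23 on the irradiated arrays, against 7.98, 8.09 and 7.95 on the untreated arrays, again with no overlap. The change was 0.31 ± 0.10 (SE, limma adjusted p = 0.167). Asns, asparagine synthetase, a target of ATF4 in amino acid shortage, was at 7.76 and 7.26 on the irradiated arrays, against 7.08, 7.25 and 7.11 on the untreated arrays. Irradiated replicate 2 was level with the highest untreated array, and the change was 0.36 ± 0.16 (SE, limma adjusted p = 0.267). The second Asns probe set gave 0.49 with no overlap. Trib3, a pseudokinase that restrains ATF4, and Chac1, an enzyme that degrades glutathione, both overlapped between the groups, at 0.18 and 0.12.

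ER-associated degradation and translocation had values of both signs. Edem1, which selects misfolded glycoproteins for removal, was at 8.61 and 8.53 on the irradiated arrays, against 8.38, 8.29 and 8.20 on the untreated arrays. Syvn1, the membrane ubiquitin ligase HRD1, was at 6.60 and 6.50 on the irradiated arrays, against 6.38, 6.23 and 6.30 on the untreated arrays. Both genes had irradiated arrays above all untreated ones that differed little from each other, at changes of 0.29 ± 0.10 and 0.24 ± 0.098 (SE) with limma adjusted p of 0.178 and 0.226. Herpud1, a scaffold of the HRD1 complex, also had no overlap (0.20, limma adjusted p = 0.334). Sel1l, the adaptor of HRD1, overlapped at 0.044.

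Sec61b, a subunit of the channel through which proteins enter the ER, was lower at 9.32 and 9.37 on the irradiated arrays, against 9.72, 9.54 and 9.60 on the untreated arrays. No irradiated value reached an untreated one, and the change was -0.27 ± 0.10 (SE, limma adjusted p = 0.191). A probe set shared by Sec61b and another gene was left out. Derl1, a membrane protein of the degradation channel, was at 9.30 and 9.21 on the irradiated arrays, against 9.60, 9.56 and 9.39 on the untreated arrays (-0.26, limma adjusted p = 0.231). Its 4 probe sets disagreed, at -0.30, -0.26, 0.083 and 0.17, so the lower value is that of the brightest probe set and not a direction for the gene. Derl2, its paralog, differed by 0.026. The median of the 7 genes was 0.044.

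Of the sensors, Atf6, whose cleaved form enters the nucleus, was at 7.09 and 6.93 on the irradiated arrays, against 6.74, 6.72 and 6.90 on the untreated arrays. The groups did not overlap, though irradiated replicate 2 was only just above the highest untreated array (0.23, limma adjusted p = 0.283). Eif2ak3 (0.019) and Ern1 (-0.11) overlapped, and Ern1 lay near the level filter, between 4.20 and 4.45 on all arrays. Xbp1, whose mRNA is spliced by IRE1 into the form that encodes the active factor, was at 10.91 and 10.66 on the irradiated arrays, against 10.66, 10.52 and 10.53 on the untreated arrays (0.22, limma adjusted p = 0.326).

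Xbp1 had 4 probe sets past the filter, with differences of 0.44, 0.28, 0.22 and -0.16. The 3 brighter ones had both irradiated arrays above the untreated ones, and the fourth, the dimmest, overlapped. On the brightest, irradiated replicate 2 (10.661) was almost level with untreated replicate 1 (10.655). The probe set with the difference of 0.44 was at 10.45 and 10.24 on the irradiated arrays, against 9.96, 9.90 and 9.87 on the untreated arrays. It was not called when every probe set was tested on its own (limma adjusted p = 0.111). The probe sets were not assigned to the spliced or unspliced mRNA.

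**Figure D3:**
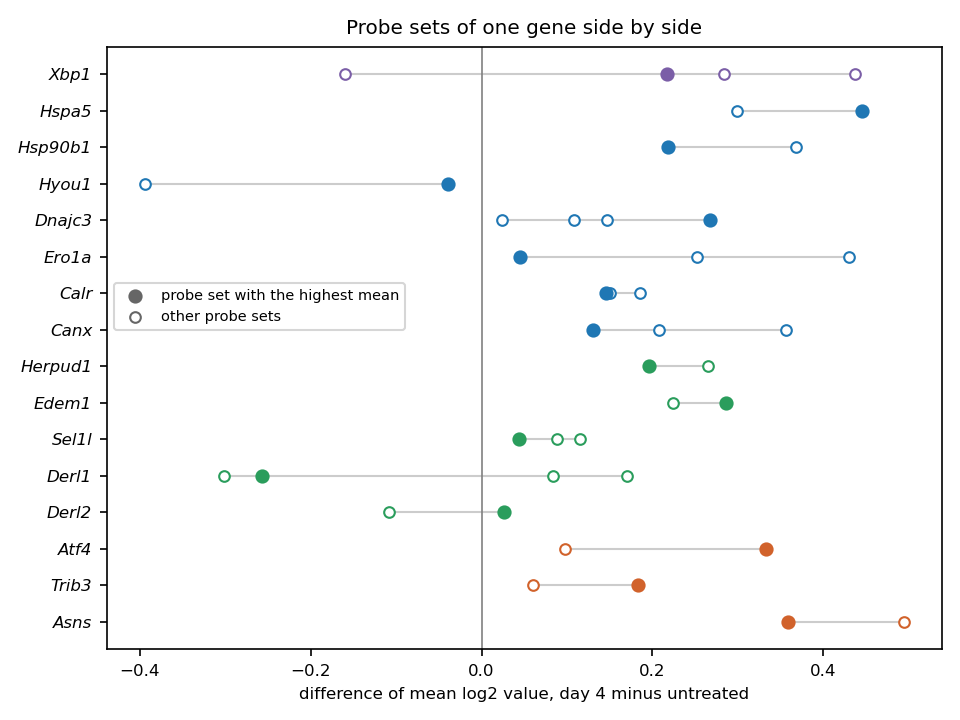
Difference of the mean log2 value, day 4 minus untreated, for each probe set past the level filter of the 16 genes that had more than 1. Filled points are the probe sets with the highest mean, which stand for the gene in the test, and open points are the others. All probe sets lie on one side of 0 for 13 genes, while those of Xbp1, Derl1 and Derl2 lie on both sides.

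Over all probe sets, 58 of the 68 with the symbol of 1 gene passed the level filter, and 50 of the 58 had a difference above 0, against 49.2% of all 13868 probe sets past it. Irradiated arrays lay above all untreated ones on 23 of the 58 and below them on 3, against 18.9% and 20.5% of all these probe sets. With every probe set tested on its own by limma, 0 of the 58 were called, against 1.48% of all.

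A wider list of 114 other ER stress and secretory pathway genes had 98 genes tested. It was written from textbook knowledge, but also with earlier results of these data known. Of these, 2 were called higher and 0 lower, against 1.5% and 1.35% of all genes tested. Sesn2, known as a target of ATF4 and of p53 that restrains growth signalling, rose 3.27-fold. It was at 7.41 and 7.19 on the irradiated arrays, against 5.43, 5.43 and 5.93 on the untreated arrays, a change of 1.71 ± 0.18 (SE, limma adjusted p = 0.0124). Without irradiated replicate 1 the Sesn2 call was lost at a change of 1.60 (limma adjusted p = 0.0939). Map3k5 encodes ASK1, a kinase that links IRE1 to stress kinases. It rose to 5.57 and 5.54 on the irradiated arrays, against 4.96, 4.94 and 5.06 on the untreated arrays (0.57 ± 0.092, limma adjusted p = 0.0362). The Map3k5 call was lost without any 1 of the 5 arrays, at changes of 0.55 to 0.61. It was also lost with array weights, the replicate block and every probe set tested on its own (limma adjusted p of 0.0826, 0.0532 and 0.0536). Counting the main fit, Map3k5 was called in 6 of the 14 settings that tested it.

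The wider list had values of both signs in similar numbers. Its median change was -0.015, and 44 of 98 values were above 0. The 15 folding genes described above had a median of 0.21 with 14 above 0, against -0.085 with 8 above 0 for the 25 other folding genes. In the wider degradation and translocation group the median was -0.013, with 11 of 29 above 0. The Atf4 arm had a median of 0.32 with 6 of 6 above 0, against 0.038 with 22 above 0 for the 36 other genes linked to ATF4. At an unadjusted limma p under 0.05, 11 wider genes (11.2%) were higher and 9 (9.18%) lower, close to the 10.1% and 11.1% of all genes tested. No test was made of these differences between lists.

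**Figure D4:**
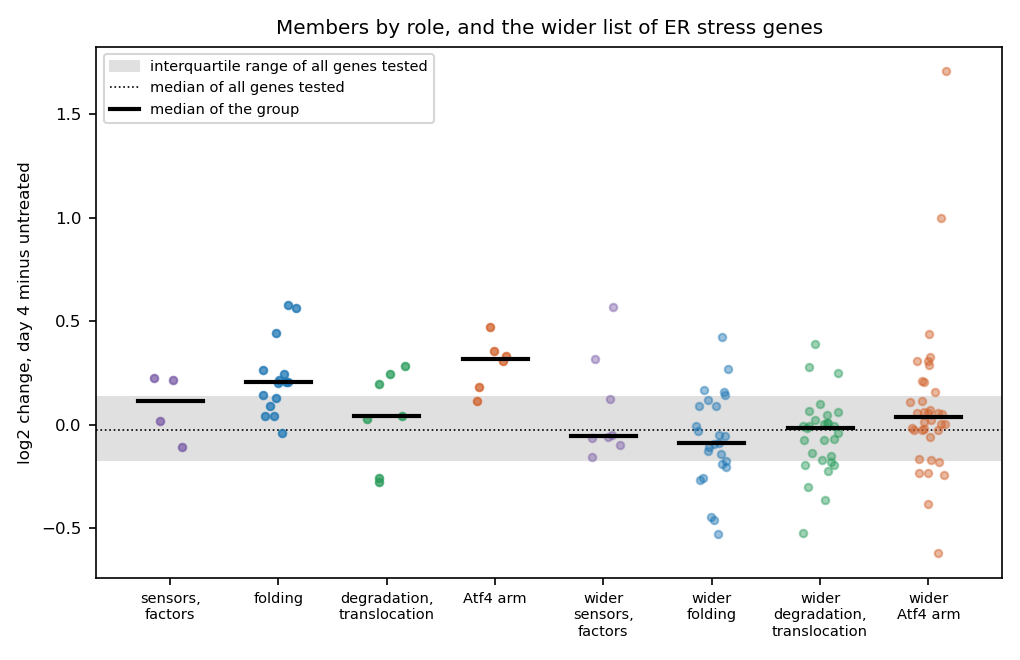
Log2 change, day 4 minus untreated, of the 32 genes by role (left 4 columns) and of the wider list (right 4 columns), each point 1 gene. Thick lines are group medians, the grey band is the interquartile range of all genes tested and the dotted line their median. The Atf4 arm (0.32) and the folding genes (0.21) have the highest medians, and the highest single point is Sesn2 in the wider Atf4 arm at 1.71.

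Markers of other cells differed between the groups. Cdh5, the gene of the sorted VE-cadherin, averaged 11.39 ± 0.0086 (SD, n = 2) on the irradiated arrays and 11.57 ± 0.065 (SD, n = 3) on the untreated arrays, and Pecam1 averaged 9.86 ± 0.27 and 9.72 ± 0.11 on the same groups. Neither was called, nor were Epcam and Ptprc, the genes of the 2 surface proteins sorted against. The 12 endothelial markers had changes from -0.40 (Tek) to 0.17 (Erg), with a median of -0.072, and none was called. Their summed linear signal was 20728 and 23727 on irradiated replicates 1 and 2, against 22134 to 25189 on the untreated arrays. Of 12 macrophage markers 3 were called higher. The summed linear signal of all 12 was 5205 and 3960 on irradiated replicates 1 and 2, against 1020 to 2322 on the untreated arrays. Sums ran over every listed marker on the arrays, tested or not. Of 8 tested thymocyte markers 5 were called lower, and the sum over 10 markers was 203.0 and 212.0 against 449.7 to 841.5. Of 5 tested B and plasma cell markers 3 were called lower, Cd79b, Jchain and Ms4a1, at changes of -1.14, -1.37 and -1.45. The sum over 8 B and plasma cell markers, 323.5 and 286.0 against 307.2 to 335.3, also holds Prdm1 and Sdc1. Prdm1 and Sdc1 were the brightest tested markers of this list, at changes of 0.34 and -0.0041. No fibroblast or thymic epithelial marker was called. Fibroblast signal was 7317 and 5316 on irradiated replicates 1 and 2, against 5365 to 6232, and epithelial signal was 2002 and 851.2, against 1478 to 2493. Rag2, Cd79a, Pou2af1, Irf4 and Foxn1 were at a log2 value of 4 or less on every array. Irradiated replicate 1 was the higher of the pair for 21 of the 32 genes (65.6%), against 43.8% of all genes tested. It also held more macrophage, fibroblast, epithelial and B and plasma cell signal than replicate 2, and less endothelial and thymocyte signal. The 3' minus 5' signal of the actin control, a sign of RNA quality, was 1.35 and 1.39 on the irradiated arrays, against 1.43 to 1.65 on the untreated arrays. The part of these signals in the values of the 32 genes was not tested.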

How the data were processed

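Single-colour Affymetrix arrays measured RNA of 5 pools of sorted cells, 2 irradiated and 3 untreated. The deposited values are 1 log2 value per probe set, and the authors made them with GCRMA according to the submitters' processing notes. The GCRMA version, and whether it ran on all arrays jointly, is not given in the sources used here. This normalization hides a change shared by most genes and spreads out low values. Symbols came from the platform annotation (20380 of 22690 probe sets with 1 symbol, 20351 matched to RefSeq of GRCm38.p6 by Entrez identifier).

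Each gene was read on its brightest probe set by mean, among those with a log2 value above 4 on at least 2 arrays, giving 8940 genes. The comparison used limma 3.58.1 (lmFit, eBayes) under R 4.3.3, two-sided, with 3 residual and 3.29 prior degrees of freedom, and Benjamini-Hochberg adjustment over all genes. The procedure was tested on simulated data. No set test was run. All 32 genes are named, and of the wider list the called genes, with Cdh5, Pecam1, Epcam and Ptprc for the sort. Other markers are named for their calls, range or level. The closing observations name further genes that were not called, some of them picked after their values were seen. Members and lists were chosen with earlier results of these data known. Alternatives were other normalizations, filters, probe set rules and variance models, a replicate block, and leaving out each array. Nothing in the labels says that arrays hold separate animals, so p-values describe only how these pools vary, which may be partly technical, and the number of arrays limits the precision. Figures used matplotlib 3.10.9.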

Additional observations from a re-analysis of the deposited data

How the results depend on the processing

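The number of members with a log2 change above 0 was 25 to 28 under every alternative. With the level filter at 6 it was 26 of the 29 members that passed. Their median change was 0.15 to 0.26, except without irradiated replicate 1, where it was 0.14. Members called numbered 0 in most settings, 1 with an intensity trend and robust fitting (Ppp1r15a) and 1 with the replicate block (Pdia3, 0.77, limma adjusted p = 0.0339). Settings that left 1 irradiated array are not counted here. The changes of Dnajb9 and Hspa5 were 1.02 and 0.69 without irradiated replicate 2, and 0.14 and 0.20 without irradiated replicate 1. No member was called lower under any setting. Of all genes tested, 4.68% were called with the intensity trend and robust fitting and 5.38% with the replicate block. At these shares, 1 member called does not set the members apart from all genes. Values close to 0 changed sign without being called. Derl2 was -0.0037 with median centring, -0.041 with the mean of probe sets, -0.0038 with the replicate block and without untreated replicate 3, -0.0028 without irradiated replicate 1 and -0.0021 without untreated replicate 2, with a range of -0.0038 to 0.085 when 1 array was left out. Eif2ak3 was -0.011 with median centring, with the block and without untreated replicate 3, and -0.11 without irradiated replicate 2, with a range of -0.11 to 0.15 when 1 array was left out. Sel1l was -0.014 with the block and without untreated replicate 3 and -0.018 without irradiated replicate 2, and was 0.13 at most without 1 array. Hyou1 was 0.012 without untreated replicate 2 and -0.083 at the lowest without 1 array. Of 445 values of single members under the alternatives, 427 kept direction and side of the threshold. Direction was fixed in part of these. Dropping the level filter, raising it to 6, testing every probe set on its own and fitting an intensity trend left each member's log2 change as it was. Only the side of the threshold could move there.

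Over all genes, calls numbered 418 with an intensity trend and robust fitting (206 higher, 212 lower), 86 with array weights (49 and 37), 481 with the replicate block (257 and 224), and 11 to 341 when 1 array was left out (7 to 232 higher and 4 to 109 lower, with 11 without irradiated replicate 1, 34, 163 and 140 without untreated replicates 3, 2 and 1). Wider list calls numbered 5 with the trend, 1 with array weights, with the block or with every probe set tested on its own, and 0 to 2 without 1 array. Replicate numbers are shared by 2 pairs only, whose deviations from the group means correlated at 0.16 and 0.078, so they were not taken as a pairing. The number of arrays limits the precision, with standard errors of 0.088 to 0.24 for the changes of the members, and signals near a log2 value of 4 are close to background.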

Other observations

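Other genes with the ERSE letters in their promoter windows had mostly negative changes. Among tested genes outside the 32, 7 held the motif, 2 of them with a change above 0, and their median change was -0.18. Adcy3, an adenylate cyclase gene, was at 0.38 (limma adjusted p = 0.280) and Alg12, which encodes a mannosyltransferase of the ER, at 0.047. Derl3, a relative of Derl1, was at -0.070 and Ero1b, a relative of Ero1a, at -0.19. None of the 7 was called.

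The CARE letters were found in 195 tested genes outside the 32, whose median change was 0.012, with 102 above 0 and 7 called (3.59%), 5 of them higher. Tested genes whose windows lacked the letters had a median of -0.023, and 2.77% of them were called. The motif is short, and a match does not show binding.

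Within the wider list, several genes had limma adjusted p between 0.05 and 0.1 and so were not called. Slc7a5, which encodes an importer of large neutral amino acids, was at 7.39 and 6.58 on the irradiated arrays, against 5.89, 6.21 and 5.85 on the untreated arrays (limma adjusted p = 0.0902). Cnpy2, Prdx4 and Fkbp7, genes of ER folding or redox proteins, had changes of -0.53, -0.46 and -0.44, with adjusted p of 0.0700, 0.0787 and 0.0649. All 3 had both irradiated arrays below every untreated array. Txndc11, which encodes a thioredoxin-domain protein of the ER, had a change of the other sign, 0.42, with a limma adjusted p of 0.0753 and both irradiated arrays above every untreated array. These genes were picked out after their values were seen.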
